A study of Mus musculus with 6 samples.

Results

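Interferon-stimulated genes are switched on when a cell senses interferons, and here they stand for a set of 39 listed mouse genes measured in Th17 cultures with and without 2-deoxyglucose (2DG), an analogue of glucose that blocks glycolysis. Members were the loci of the deposited table whose gene name equals a listed symbol, and all 39 were found among 23203 loci, each as a locus of its own that names no other gene. They comprise 4 receptor genes, 25 genes called type I-like here, because they are classical targets of type I interferon, and 10 genes called GBP and IRF1-type, the targets more typical of interferon gamma. The starting cells were naive mouse CD4 T cells, turned toward Th17 cells (the helper T cells that make IL-17) for 48 h. All cultures, with 2DG or with vehicle, received IL-23 at 10 ng/ml, TGFb1 at 2.5 ng/ml and IL-6 at 20 ng/ml on anti-CD3e (coated at 10 µg/ml) with anti-CD28 at 1 µg/ml. In addition, the cells behind 3 libraries had 250 µM 2DG and those behind the other 3 had DMSO, the vehicle; total RNA was sequenced. No interferon is among the added agents that the labels give. The mouse strain, sex and age were not stated in the labels, nor whether the 3 libraries of a group are separate animals or cultures. The p-values therefore set a group difference against the spread between these libraries only, which may be technical.

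As background, type I interferons bind the receptor pair IFNAR1 and IFNAR2, whose kinases JAK1 and TYK2 activate STAT proteins; a complex that holds STAT2 and IRF9 then binds the interferon-stimulated response element (ISRE) in antiviral genes such as the IFIT, OAS and MX families. Interferon gamma binds IFNGR1 and IFNGR2, which signal through JAK1 and JAK2 to the gamma-activated site (GAS) and induce IRF1 and the guanylate-binding (GBP) and immunity-related (IRG) GTPases. In mouse CD4 T cell cultures interferon gamma is known to hold back Th17 differentiation.

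With 2DG, transcripts of both chains of the interferon gamma receptor fell, while no type I-like and no GBP or IRF1-type target passed the test in either direction. Ifngr1 averaged 24.4 ± 3.03 FPKM with 2DG and 67.9 ± 13.4 FPKM with vehicle, and Ifngr2 averaged 21.7 ± 1.85 FPKM with 2DG and 35.3 ± 2.60 FPKM with vehicle (SD, n = 3 each). FPKM (fragments mapped to a transcript, per kilobase of its length and relative to all mapped fragments) is a level per transcript length. Of the 39 members, 25 reached a 6-library mean of 1 FPKM and were tested with limma on log2(FPKM + 1); of these 0 were higher, 2 were lower and 23 were not called at a Benjamini-Hochberg adjusted p under 0.05. At an unadjusted p under 0.05 there were 13 of the 25, against 17.9% (1830) of all tested loci. Over all 10228 tested loci 2.72% were called, 1.53% as higher and 1.19% as lower. The levels of the 2DG libraries all lay above those of the vehicle libraries for 2 tested members and all below for 10, while over all tested loci 23.7% did not overlap, 11.9% with 2DG above and 11.8% with 2DG below. The median log2 fold change (2DG minus vehicle) of the 25 tested members was -0.25, against -0.01 over all tested loci. In bulk cultures such as these, fewer cells of a type and less RNA per cell cannot be told apart.

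**Figure D1:**
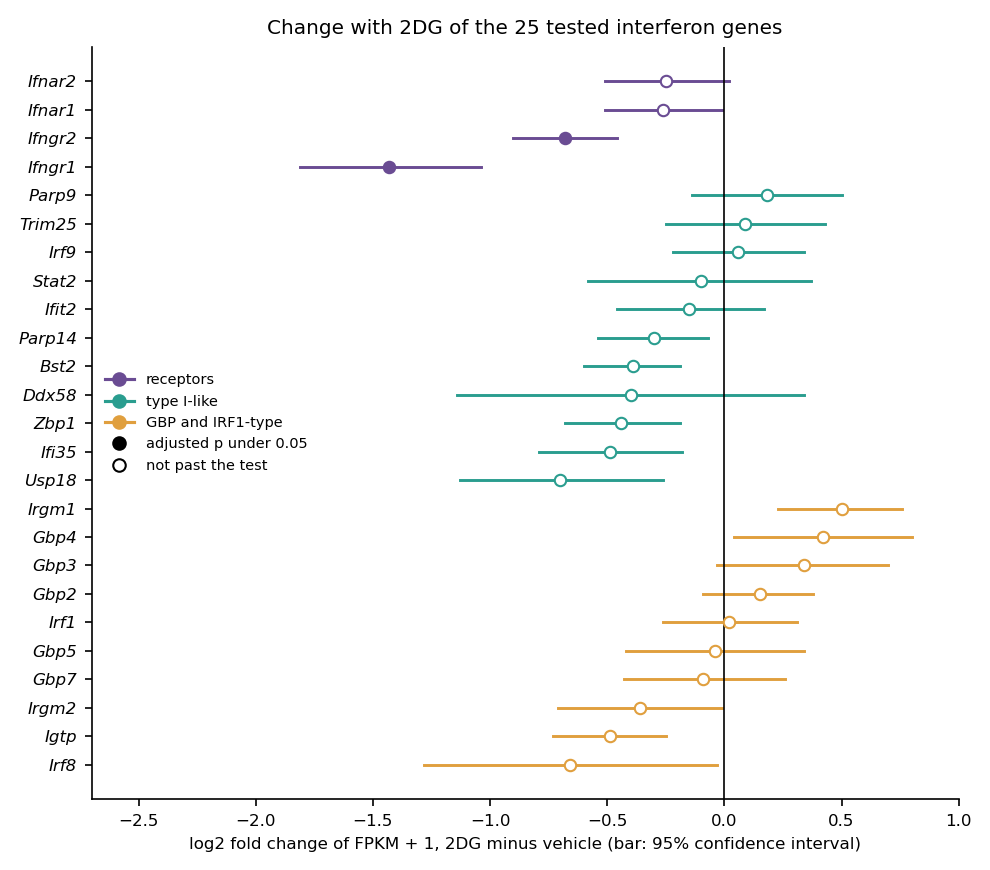
Log2 fold change of FPKM + 1 (2DG minus vehicle, horizontal axis) of the 25 tested members, with 95% confidence intervals as bars, by role. Filled points passed the test (Ifngr1 and Ifngr2), open points did not, and the vertical line marks no difference.

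Absolute depth is unknown, since the table holds no counts. Summed FPKM of markers of B cells (0.189 to 2.57 with 2DG, 0.62 to 3.8 with vehicle), macrophages (1.42 to 3.48 with 2DG, 1.5 to 4.91 with vehicle) and dendritic cells (0.294 to 1.34 with 2DG, 0.408 to 0.553 with vehicle) were low beside those of 7 T cell markers (1050 to 1210 with 2DG, 1040 to 1200 with vehicle), with the macrophage gene Fcgr1 and the dendritic cell gene Clec9a at 0 in all libraries. The macrophage genes Cd68 (1.17 FPKM with 2DG and 1.46 FPKM with vehicle) and Lyz2 (0.869 FPKM with 2DG and 1.16 FPKM with vehicle) reached the filter. The dendritic cell sum leaves out Bst2, a listed marker of dendritic cells that is itself a member. Bst2 averaged 71.0 FPKM with 2DG and 93.6 FPKM with vehicle, far above that sum. Markers of NK and CD8 T cells summed to 12 to 23.3 FPKM with 2DG and 15.9 to 38.2 FPKM with vehicle, with Klrb1c at 0. The highest of them was Klrd1 (13.4 ± 4.64 FPKM with 2DG and 26.8 ± 12.0 FPKM with vehicle, adjusted p = 0.30 in limma). Cd8b1 came next (3.68 FPKM with 2DG and 2.89 FPKM with vehicle). Il17a, the defining Th17 cytokine gene, was higher with 2DG (652 ± 69.2 FPKM, against 252 ± 16.1 FPKM with vehicle, adjusted p = 0.0032). The replicate 1 libraries stood apart in Rn45s, the ribosomal RNA precursor, at 7186 FPKM with 2DG and 12874 FPKM with vehicle and at 0 in the other 4 libraries. Low values need care, since Gapdh, which every cell uses, is listed at 0.135 to 1.12 FPKM.

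The members fell into separate ranges of level. Of the 25 type I-like genes 14 stayed under a mean of 1 FPKM and 7 under 0.1 FPKM, whereas all 10 GBP and IRF1-type genes and all 4 receptor genes lay above 1 FPKM. The median of the gene means was 0.898 FPKM for type I-like genes, 13.3 FPKM for GBP and IRF1-type genes and 25.3 FPKM for receptors, beside 14.7 FPKM over all tested loci. Gbp2 had the highest level of any member, with 163 FPKM over the 6 libraries, above 95.2% of tested loci. Bst2 (82.3 FPKM), Irf8 (67.8 FPKM) and Igtp (61.0 FPKM) came next in mean level.

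**Figure D2:**
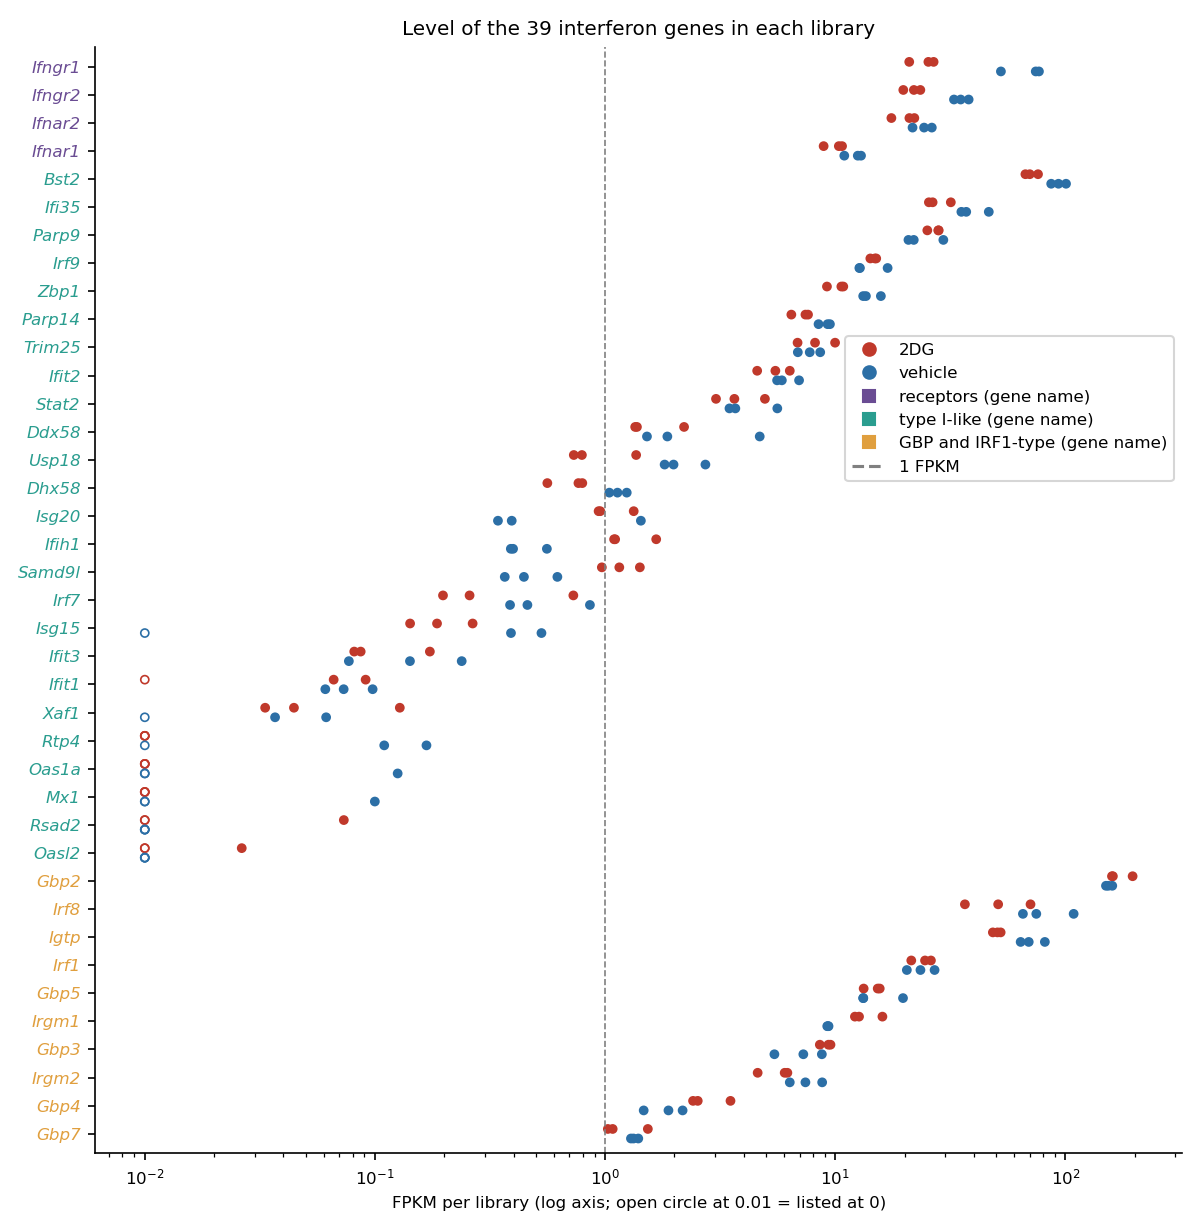
FPKM (log axis) of each of the 39 members in each library, 2DG above vehicle for each gene, with name colours for the roles and open circles at 0.01 for values listed at 0. The classical antiviral genes from Irf7 to Oasl2 lie left of the dashed line at 1 FPKM in every library, and no GBP or IRF1-type gene does.

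Interferon genes themselves were listed at or near 0. Of 21 matched ligand genes 18 were at 0 in all libraries, Ifnb1 among them, and none reached a mean of 1 FPKM. Ifng, which encodes interferon gamma, had the highest value of the 21, at 0.190, 1.09 and 1.13 FPKM in 2DG replicates 1, 2 and 3 and at 0.618, 1.05 and 0.343 FPKM in vehicle replicates 1, 2 and 3. These groups overlapped, and the highest value of any other ligand gene was 0.396 FPKM.

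Among the receptors, Ifngr1, the ligand-binding chain for interferon gamma (locus XLOC_001320, chromosome 10, 19591949 to 19610229), showed the largest change of the tested members. It had 21.0, 25.4 and 26.8 FPKM in the 2DG libraries and 74.3, 76.8 and 52.5 FPKM in the vehicle libraries. The lowest vehicle library thus stood well above the highest 2DG library. The log2 fold change was -1.43 ± 0.16 (SE; 95% confidence interval -1.81 to -1.04; adjusted p = 0.0091), and it ran from -1.60 to -1.33 as each library was left out in turn, with the highest adjusted p at 0.041. With replicates 2 and 3 only, without the libraries that hold Rn45s, the call was lost (adjusted p = 0.064).

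Ifngr2, the chain that brings JAK2 to that receptor (XLOC_007750, chromosome 16, 91547059 to 91564007), had 19.8, 21.96 and 23.4 FPKM in the 2DG libraries and 38.0, 35.1 and 32.8 FPKM in the vehicle libraries. Again every 2DG library lay below every vehicle library, and the spread within a group was narrow. The log2 fold change was -0.68 ± 0.09 (SE; 95% confidence interval -0.90 to -0.46; adjusted p = 0.017). This call was less firm than that of Ifngr1: it was kept without 2DG replicate 3 (adjusted p = 0.037) and without vehicle replicate 3 (0.040), and lost without 2DG replicate 1 (0.070), 2DG replicate 2 (0.063), vehicle replicate 1 (0.050, just over the threshold) and vehicle replicate 2 (0.060). It was also lost after rescaling the libraries to an equal sum (adjusted p = 0.12), with a replicate block (0.070) and with replicates 2 and 3 only (0.14).

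The chains of the type I receptor did not pass the test. Ifnar1 (chromosome 16, 91485032 to 91510523) had 8.90, 10.7 and 10.4 FPKM with 2DG and 12.5, 12.9 and 10.9 FPKM with vehicle, groups that just failed to overlap (log2 fold change -0.26 ± 0.11 SE, adjusted p = 0.26). Ifnar2 (chromosome 16, 91372783 to 91405589) had 17.5, 22.1 and 21.0 FPKM with 2DG and 26.3, 24.3 and 21.7 FPKM with vehicle, and its groups overlapped (-0.25 ± 0.11 SE, adjusted p = 0.32). Both have negative estimates whose intervals end close to 0, at -0.01 for Ifnar1 and 0.02 for Ifnar2. The neighbouring gene Il10rb, on chromosome 16 from 91406157 to 91425834, encodes a chain shared by the IL-10 and interferon lambda receptors. It fell to 10.9 ± 0.830 FPKM with 2DG, against 17.8 ± 2.58 FPKM with vehicle (log2 fold change -0.65, adjusted p = 0.039), a call that was lost as any 1 library was left out (adjusted p from 0.056 to 0.14) and with no filter (0.080).

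Set against each other within a library, the receptor transcripts stood in different ratios in the groups. The ratio of Ifngr1 to Ifngr2 FPKM was 1.06, 1.16 and 1.14 in the 2DG libraries and 1.96, 2.19 and 1.60 in the vehicle libraries. The ratio of Ifngr1 to Ifnar1 was 2.35, 2.37 and 2.58 in the 2DG libraries and 5.93, 5.93 and 4.79 in the vehicle libraries. Neither ratio overlapped between the groups, and the exact two-sided permutation test gave p = 0.1 for each, the smallest value that 3 against 3 libraries allow. These ratios were picked after the values were seen.

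**Figure D3:**
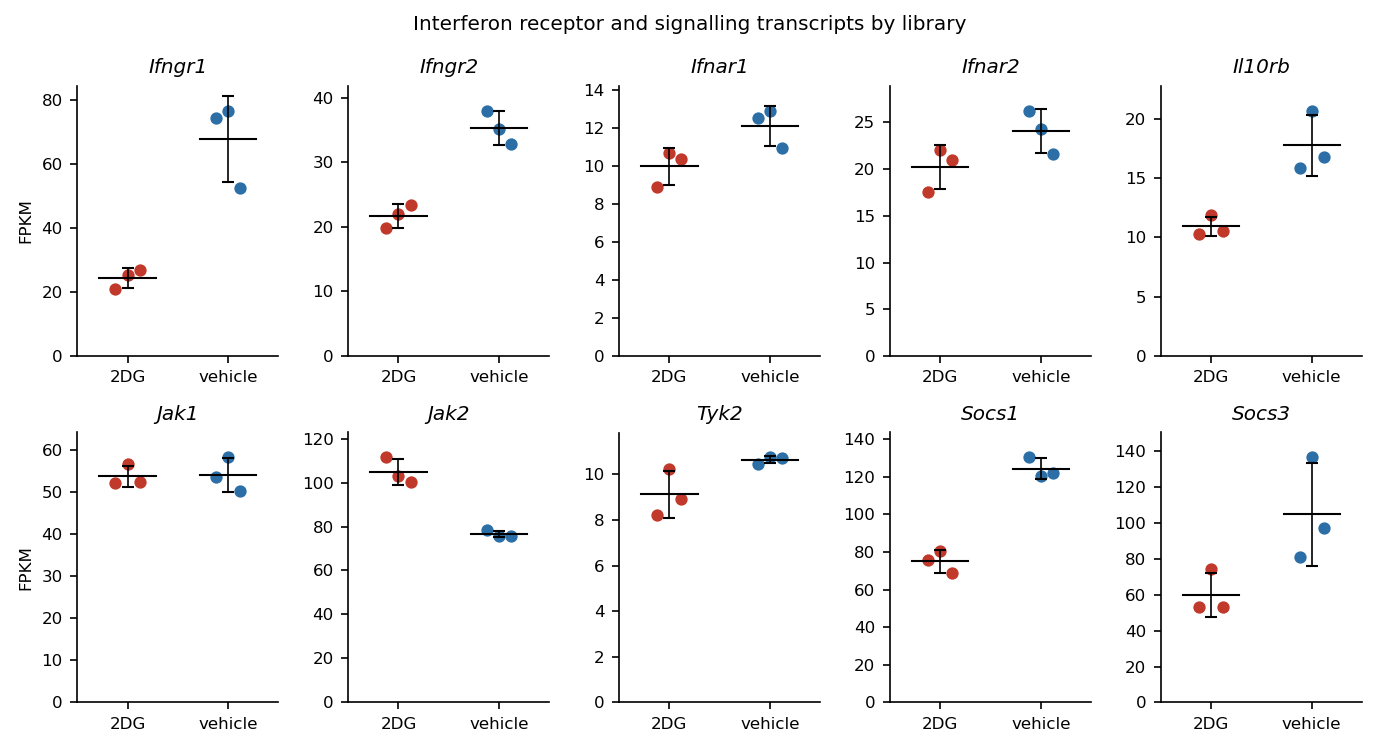
FPKM of receptor, kinase and SOCS transcripts in each library (points), with the mean (wide line) and SD (bars) of the 3 2DG libraries on the left of each panel and of the 3 vehicle libraries on the right. Ifngr1, Ifngr2, Il10rb, Socs1 and Socs3 lie below vehicle in every 2DG library, as do Tyk2 and, by a small margin, Ifnar1, and Jak2 lies above.

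The bases directly before the start site of each interferon gamma receptor gene are shown because these members are the ones past the test. They come from RefSeq on GRCm38.p6, run from 150 bases to 1 base before the start, and carry CG dinucleotides in capitals. Ifngr1 lies at chr10:19591799-19591948 and Ifngr2 at chr16:91546909-91547058, both on the plus strand.
Ifngr1: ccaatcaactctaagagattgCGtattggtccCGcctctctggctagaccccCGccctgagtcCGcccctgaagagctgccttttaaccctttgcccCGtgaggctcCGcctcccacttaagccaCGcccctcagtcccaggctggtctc
Ifngr2: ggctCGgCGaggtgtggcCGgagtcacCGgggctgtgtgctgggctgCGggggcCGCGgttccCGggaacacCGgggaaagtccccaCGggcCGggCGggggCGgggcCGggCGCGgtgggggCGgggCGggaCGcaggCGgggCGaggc
The Ifngr1 stretch holds 7 CG dinucleotides and the Ifngr2 stretch 21. Over the whole window of 300 bases, 250 before the start and 50 from it on, the G and C share was 60.3% for Ifngr1 and 74.3% for Ifngr2. The median over all RefSeq windows was 52.7%.

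The signal transducers and interferon regulatory factors among the members did not pass the test. Stat2, a transducer of the type I interferon signal, had 3.65, 4.95 and 3.03 FPKM with 2DG and 3.47, 5.60 and 3.68 FPKM with vehicle (log2 fold change -0.10, adjusted p = 0.84). Irf9, the DNA-binding partner in that complex, had 14.9, 15.1 and 14.2 FPKM with 2DG and 12.8, 16.9 and 12.7 FPKM with vehicle (0.06, adjusted p = 0.82). For Stat2 and Irf9 the replicate 2 libraries were the highest of both groups, and the groups overlapped.

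Irf7, the factor that amplifies type I interferon, stayed under 1 FPKM, at 0.198, 0.728 and 0.258 FPKM with 2DG and 0.386, 0.859 and 0.460 FPKM with vehicle, and was not tested. Irf1, the factor that interferon gamma induces, was close to level, at 21.4, 26.0 and 24.6 FPKM with 2DG and 23.5, 27.0 and 20.5 FPKM with vehicle (log2 fold change 0.02, 95% confidence interval -0.26 to 0.31, adjusted p = 0.94). Irf8, a factor of myeloid and lymphoid cells that is also an interferon gamma target, varied widely among libraries of one group. It had 51.0, 70.5 and 36.6 FPKM with 2DG and 65.4, 109 and 74.7 FPKM with vehicle, and 2DG replicate 2 lay above vehicle replicate 1 (-0.66 ± 0.27 SE, adjusted p = 0.26).

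The best known type I-like effectors were listed at or near 0 in both groups, in or below the range where Gapdh is also listed. Isg15, a ubiquitin-like modifier, had 0.142, 0.266 and 0.186 FPKM with 2DG and 0.390 and 0.529 FPKM in vehicle replicates 2 and 3, and it was listed at 0 in vehicle replicate 1. Ifit1, which binds foreign RNA, reached at most 0.0977 FPKM in any library and Ifit3, of the same family, at most 0.238 FPKM. Mx1, an antiviral GTPase, and Oas1a, an oligoadenylate synthetase that senses double-stranded RNA, were listed at 0 in every library other than vehicle replicate 2, which had 0.0999 FPKM of Mx1 and 0.126 FPKM of Oas1a. Rsad2, which encodes viperin, was listed at 0 in every library other than 2DG replicate 3 (0.0733 FPKM), and Oasl2 in every library other than 2DG replicate 1 (0.0264 FPKM). Rtp4, a receptor transporter gene, was at 0 in all 2DG libraries and reached at most 0.167 FPKM with vehicle, and Xaf1, a pro-apoptotic gene, reached at most 0.128 FPKM in any library. No ranking of the groups can be read from values this low.

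Ifit2 had 5.49, 4.58 and 6.35 FPKM with 2DG and 6.96, 5.59 and 5.86 FPKM with vehicle (log2 fold change -0.15, adjusted p = 0.63), far above its chromosome 19 neighbours Ifit1 and Ifit3. Genes of the Ifit family may share reads, which was not tested.

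To show what these genes carry upstream of their start, the ISRE core (GAAANNGAAA, on either strand) and the GAS (TTCNNNGAA, which reads the same on both strands) were searched in RefSeq promoter windows of 300 bases on GRCm38.p6, which 31 of the 39 members have. The ISRE core lay in the windows of 16 of the 31 (51.6%), and the GAS in 13 of the 31 (41.9%). Of all 27025 genes with a RefSeq window, 1079 (3.99%, or 3.44% of all windows) held the ISRE core. The GAS lay in 9.55% of those genes (8.3% of windows). Among type I-like genes 9 of 18 held the ISRE core, 6 of them with a mean level under 1 FPKM. Among GBP and IRF1-type genes 7 of 9 held it, all above 1 FPKM, and among the 4 receptor genes 0 did, although Ifnar1 and Ifnar2 held a GAS. In Bst2 alone a match of one motif overlapped a match of the other. Below, ISRE core matches are in capitals (on the strand shown either as GAAANNGAAA or as its reverse complement) with 20 bases on each side, for 3 type I-like genes listed at low values and for Bst2, which had a high one.
Isg15: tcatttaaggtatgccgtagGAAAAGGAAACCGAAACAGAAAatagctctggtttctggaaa
Ifit1: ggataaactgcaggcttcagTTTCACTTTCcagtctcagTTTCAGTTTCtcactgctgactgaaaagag
Oas1a: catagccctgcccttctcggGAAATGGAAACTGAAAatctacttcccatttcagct
Bst2: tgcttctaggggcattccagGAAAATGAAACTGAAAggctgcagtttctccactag
Isg15 (chr4:156200855-156200916, minus strand) holds 3 overlapping matches, while Ifit1 (chr19:34640765-34640833, plus strand), Oas1a (chr5:120907510-120907565, minus strand) and Bst2 (chr8:71537567-71537622, minus strand) hold 2 each. Bst2 lay at 82.3 FPKM over the 6 libraries, against 0.252 FPKM for Isg15, 0.0648 FPKM for Ifit1 and 0.0209 FPKM for Oas1a, so a match in this window did not go with one level.

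**Figure D4:**
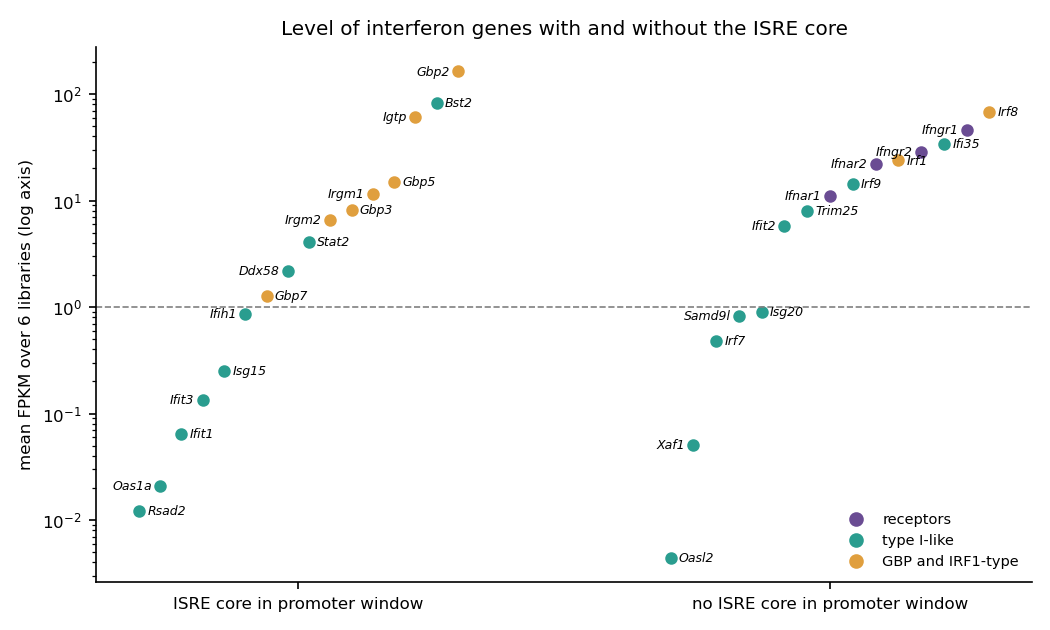
Mean FPKM over the 6 libraries (log axis) of the 31 members with a promoter window, split by whether the window holds the ISRE core; the dashed line marks 1 FPKM and the sideways order within a column is by level. Members with the core run from Rsad2 (0.0122 FPKM) to Gbp2 (163 FPKM).

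Of the 11 tested type I-like genes, 8 had a negative and 3 a positive log2 fold change. All 2DG libraries lay below all vehicle libraries for 5 of them, Usp18 included, against 11.8% of all tested loci. None passed the test (5 at an unadjusted p under 0.05, against 17.9% of all tested loci). Bst2, which encodes tetherin, a membrane protein that holds back budding viruses, came closest, with 67.0, 76.0 and 70.0 FPKM with 2DG and 86.8, 101 and 93.3 FPKM with vehicle (log2 fold change -0.39 ± 0.09 SE, adjusted p = 0.068). The difference was alike at each replicate number, -0.37, -0.40 and -0.41 on the log2 scale. Zbp1, a sensor of Z-form nucleic acids in cell death, had 10.8, 10.6 and 9.21 FPKM with 2DG and 15.8, 13.6 and 13.2 FPKM with vehicle (-0.44 ± 0.10 SE, adjusted p = 0.081). Usp18, the protease that removes ISG15 and damps the type I receptor, had 1.36, 0.731 and 0.793 FPKM with 2DG and 2.73, 1.81 and 1.98 FPKM with vehicle (-0.70 ± 0.18 SE, adjusted p = 0.11). Usp18 reached the filter through the vehicle libraries alone (mean 0.963 FPKM with 2DG and 2.18 FPKM with vehicle), so its negative estimate is no support for a direction of the role. In Bst2, Zbp1 and Usp18 every 2DG library lay below every vehicle library. With robust variance fitting and without small RNA genes, Bst2 passed the test (adjusted p = 0.045 and 0.038).

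Ifi35, an interferon-induced protein gene, averaged 27.9 ± 3.37 FPKM with 2DG and 39.6 ± 5.99 FPKM with vehicle (SD, n = 3 each; log2 fold change -0.49, adjusted p = 0.11), without overlap. Parp14, an ADP-ribosyltransferase gene, averaged 7.16 ± 0.627 FPKM with 2DG and 9.07 ± 0.538 FPKM with vehicle (-0.30, adjusted p = 0.16), also without overlap. Its neighbour Parp9, whose product works with DTX3L, averaged 27.1 ± 1.72 FPKM with 2DG and 24.1 ± 4.72 FPKM with vehicle and overlapped (0.18, adjusted p = 0.55). Trim25, the ubiquitin ligase that acts on RIG-I, averaged 8.34 ± 1.57 FPKM with 2DG and 7.74 ± 0.863 FPKM with vehicle (0.09, adjusted p = 0.80).

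The genes of the cytosolic RNA sensors lay near the filter and did not share a direction, and none of them was called. Ddx58, which encodes RIG-I, had 1.38, 1.35 and 2.204 FPKM with 2DG and 4.70, 1.52 and 1.86 FPKM with vehicle, so that its negative estimate (log2 fold change -0.40, adjusted p = 0.57) rested on vehicle replicate 1. Without that library it was -0.04. Ifih1, which encodes MDA5, had 1.11, 1.09 and 1.67 FPKM with 2DG and 0.559, 0.389 and 0.398 FPKM with vehicle. Dhx58, which encodes LGP2, a regulator of both sensors, had 0.766, 0.796 and 0.561 FPKM with 2DG and 1.13, 1.24 and 1.04 FPKM with vehicle. Ifih1 was thus above and Dhx58 below vehicle in every 2DG library, both at means under the filter. Of all tested loci 23.7% did not overlap, and no such share was taken for loci under the filter.

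Samd9l, a growth-suppressing antiviral gene, had 0.968, 1.15 and 1.42 FPKM with 2DG and 0.620, 0.444 and 0.367 FPKM with vehicle, without overlap. Isg20, an exonuclease gene, had 0.937, 0.953 and 1.33 FPKM with 2DG and 0.342, 1.43 and 0.393 FPKM with vehicle and overlapped. With a mean under 1 FPKM these members were left out of the test; in a fit with no filter none of the 14 was called, with adjusted p = 0.078 for Ifih1, 0.087 for Samd9l and 0.16 for Dhx58.

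GBP and IRF1-type genes were well expressed, with estimates on both sides of 0. All 10 were tested, 5 with a positive and 5 with a negative log2 fold change, and 0 passed the test (5 at an unadjusted p under 0.05, beside the same 17.9%). In every 2DG library 2 lay above and 2 below vehicle, against 11.9% above and 11.8% below over all tested loci. Gbp2, a guanylate-binding GTPase gene, had 159, 161 and 196 FPKM with 2DG and 154, 150 and 160 FPKM with vehicle (log2 fold change 0.15, adjusted p = 0.50). Gbp4 on chromosome 5 had 2.53, 2.41 and 3.51 FPKM with 2DG and 1.89, 1.47 and 2.17 FPKM with vehicle (0.42 ± 0.16 SE, adjusted p = 0.24). Gbp2 overlapped by a small margin, and Gbp4 did not overlap.

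The other genes of the chromosome 3 cluster overlapped between the groups. Gbp3 averaged 9.15 ± 0.510 FPKM with 2DG and 7.15 ± 1.66 FPKM with vehicle (log2 fold change 0.34, adjusted p = 0.31). Gbp5, which acts in inflammasome assembly, averaged 14.7 ± 1.26 FPKM with 2DG and 15.4 ± 3.73 FPKM with vehicle (-0.04, adjusted p = 0.93), with vehicle replicate 1 the highest library at 19.7 FPKM. Gbp7 averaged 1.21 ± 0.278 FPKM with 2DG and 1.34 ± 0.0501 FPKM with vehicle (-0.09, adjusted p = 0.80). Guanylate-binding protein genes are near-identical copies in places, and how reads were divided among them was not stated.

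The immunity-related GTPase genes had estimates of both signs. Igtp (chromosome 11, 58199556 to 58207592), also called Irgm3, had 48.4, 50.7 and 52.3 FPKM with 2DG and 63.9, 81.4 and 69.3 FPKM with vehicle (log2 fold change -0.49 ± 0.10 SE, adjusted p = 0.056). Irgm1 (chromosome 11, 48865245 to 48871420), a regulator of the family known for autophagy and for survival of activated mouse CD4 T cells, had 12.2, 12.7 and 16.0 FPKM with 2DG and 9.30, 9.35 and 9.23 FPKM with vehicle (0.50 ± 0.11 SE, adjusted p = 0.071). Irgm2 (chromosome 11, 58214977 to 58222783) had 4.60, 6.03 and 6.20 FPKM with 2DG and 7.42, 8.77 and 6.35 FPKM with vehicle (-0.36 ± 0.15 SE, adjusted p = 0.26). None of the 3 overlapped between the groups, Irgm1 lying above and Igtp and Irgm2 below vehicle in every 2DG library.

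With robust variance fitting Igtp (adjusted p = 0.031) and Irgm1 (0.048) passed, as they did without small RNA genes (0.025 and 0.041), and Igtp also with quantile normalization (0.045). The ratio of Irgm1 to Igtp FPKM within a library was 0.252, 0.250 and 0.306 with 2DG and 0.146, 0.115 and 0.133 with vehicle. The exact two-sided permutation test on it gave p = 0.1, the smallest value possible, and the pair was picked after the values were seen.

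The ISRE cores of these GTPase genes are shown for the same reason, in capitals with 20 bases on each side and from the same RefSeq windows, since genes with a like promoter element differed in the sign of their estimates.
Gbp2: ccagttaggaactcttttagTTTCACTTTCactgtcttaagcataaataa
Igtp: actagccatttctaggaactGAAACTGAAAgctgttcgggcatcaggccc
Irgm2: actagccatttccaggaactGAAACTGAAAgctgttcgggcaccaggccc
Irgm1: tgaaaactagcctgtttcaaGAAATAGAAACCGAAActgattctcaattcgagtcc
The Gbp2 stretch lies at chr3:142620584-142620633 (plus strand), Igtp at chr11:58199502-58199551 (plus strand), Irgm2 at chr11:58214893-58214942 (plus strand) and Irgm1 at chr11:48871415-48871470 (minus strand). The 50 bases around the core were identical at 48 positions between Igtp and Irgm2, which lie next to each other and both had negative estimates. Irgm1 held 2 overlapping matches.

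Between the roles, the median log2 fold change was -0.30 over the 11 tested type I-like genes, -0.01 over the 10 GBP and IRF1-type genes and -0.47 over the 4 receptors. The type I-like figure includes Usp18, which passed the filter through vehicle alone, and leaves out the 14 genes under the filter, and without a filter the median over all 25 was -0.06. Averaged over the tested members of a role, log2(FPKM + 1) for type I-like genes was 3.33, 3.40 and 3.32 with 2DG and 3.65, 3.62 and 3.50 with vehicle, so each 2DG library lay below each vehicle library. For GBP and IRF1-type genes it was 3.93, 4.08 and 4.11 with 2DG and 4.02, 4.15 and 4.01 with vehicle, which overlapped. For the receptors it was 4.09, 4.33 and 4.34 with 2DG and 5.01, 4.98 and 4.73 with vehicle, without overlap. The 40 tested type I-like targets outside the members had a median of 0.23. The sign of such a median thus depended on which genes were listed and tested. That figure includes Apol9a, Trim34a and Tor3a, which passed the filter through 2DG alone, and leaves out 31 genes under the filter. Without a filter it was not computed. These means and medians are descriptions, and the difference between the roles was not tested.

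**Figure D5:**
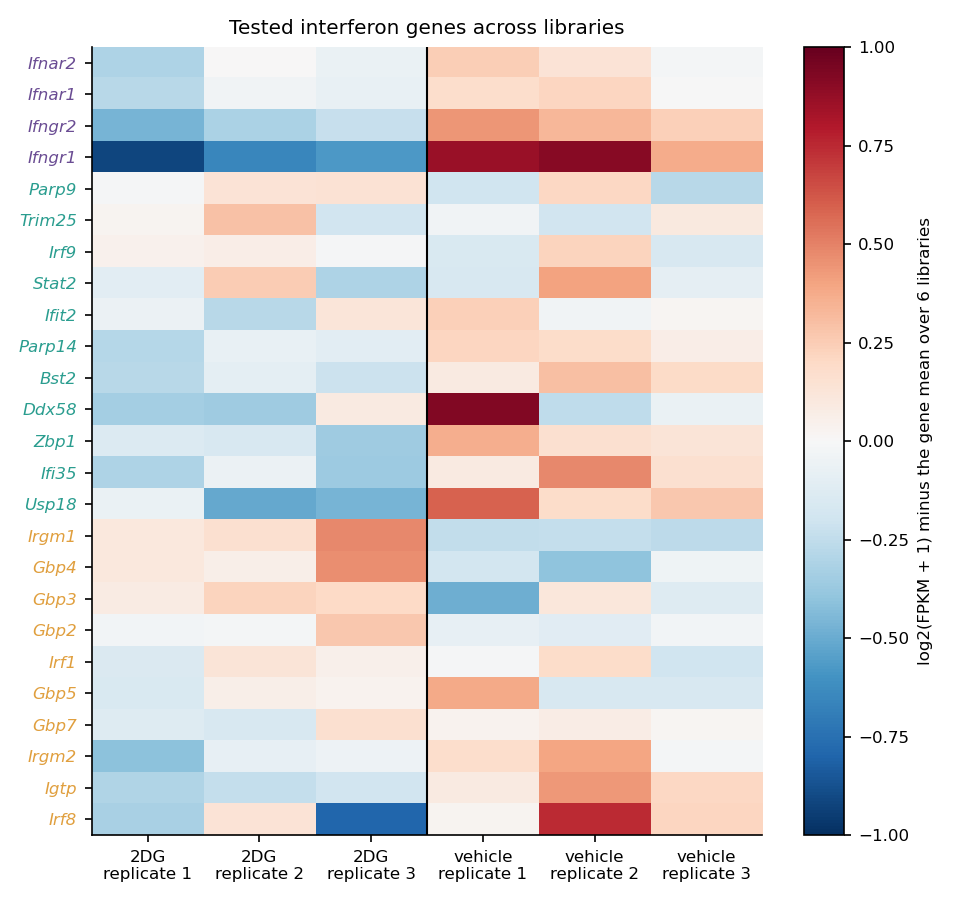
Log2(FPKM + 1) of the 25 tested members in the 3 2DG libraries (left) and the 3 vehicle libraries (right), minus the gene's mean over the 6 libraries, shown as colour (blue below, red above the mean). Ifngr1 and Ifngr2 are blue in all 2DG and red in all vehicle libraries, Irgm1 and Gbp4 the other way round, and Ddx58 is dark red in vehicle replicate 1.

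Members also differed in whether their spread followed the groups or the replicate numbers. The share of a gene's sum of squares lying between 2DG and vehicle was 92.6% for Ifngr1, 93.3% for Ifngr2, 85.5% for Bst2, 84.1% for Igtp and 82.3% for Irgm1. For Stat2 it was 4.37%, with 90.2% between replicate numbers, and for Irf1 it was 0.801%, with 64.0% between replicate numbers. The median share between groups was 49.7% over the 25 tested members and 23.2% over all tested loci. By role it was 77.4% for receptors, 47.3% for GBP and IRF1-type genes and 24% for type I-like genes, the last close to all loci. The median share between replicate numbers was 22.4% over the tested members and 34.2% over all tested loci.

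Of the wider pathway, 152 other listed genes were matched, 80 were tested, and 5 were higher and 3 lower with 2DG. Over all tested loci 1.53% were called higher and 1.19% lower. Among 17 tested signalling genes 1 was higher and 2 were lower, beside the same shares. Jak2, the kinase of the IFNGR2 chain, had 112, 103 and 100.3 FPKM with 2DG and 78.3, 75.8 and 75.8 FPKM with vehicle (log2 fold change 0.45 ± 0.07 SE, adjusted p = 0.027), without overlap. Jak2 thus rose where the receptor chains Ifngr1 and Ifngr2 fell. It lost its call without any 1 library (adjusted p from 0.058 to 0.12), with a replicate block, after rescaling to an equal sum (0.47) and with replicates 2 and 3 only (0.20).

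Socs1, the inhibitor of interferon gamma signalling that interferon itself induces, had 75.5, 80.7 and 68.7 FPKM with 2DG and 131, 121 and 122 FPKM with vehicle. Its log2 fold change was -0.72 ± 0.08 (SE, adjusted p = 0.0099) and it kept its call as each library was left out, with adjusted p from 0.027 to 0.050 (just under the threshold), but not after rescaling to an equal sum (0.12) or with replicates 2 and 3 only (0.098). Socs3, an inhibitor mainly of gp130 signalling, averaged 60.1 ± 12.2 FPKM with 2DG and 105 ± 28.8 FPKM with vehicle and did not pass (-0.78, adjusted p = 0.11). Jak1 averaged 53.8 ± 2.49 FPKM with 2DG and 54.1 ± 4.09 FPKM with vehicle (-0.01, 95% confidence interval -0.20 to 0.19, adjusted p = 0.98). Tyk2 averaged 9.12 ± 1.03 FPKM with 2DG and 10.6 ± 0.154 FPKM with vehicle (-0.21, adjusted p = 0.33).

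Of 71 other listed type I-like targets 40 were tested, 4 were higher and 1 was lower, against 1.53% and 1.19% of all tested loci. Their estimates lay mostly on the other side of 0 from those of the members. Of the 40, 29 were positive and 11 negative, with a median log2 fold change of 0.23. In every 2DG library 16 lay above and 5 below vehicle, against 11.9% above and 11.8% below over all tested loci. Slfn2, a Schlafen gene needed for T cell quiescence, averaged 199 ± 12.1 FPKM with 2DG and 122 ± 17.3 FPKM with vehicle (log2 fold change 0.72, adjusted p = 0.024). Slfn1 (0.69, adjusted p = 0.039), the activation marker gene Cd69 (0.48, adjusted p = 0.037) and Apol9a (0.97, adjusted p = 0.045) were also higher. Ly6a, which encodes the surface antigen Sca-1, had 153, 176 and 238 FPKM with 2DG and 507, 474 and 324 FPKM with vehicle and fell by 1.20 on the log2 scale (adjusted p = 0.039). Slfn2 kept its call only without vehicle replicate 3 (adjusted p = 0.023), and with 1 library left out the highest adjusted p was 0.14 for Slfn1, 0.12 for Cd69, 0.13 for Apol9a and 0.12 for Ly6a. With no filter on low values none of the 5 was called, with adjusted p = 0.051 for Slfn2, 0.058 for Cd69, 0.062 for Apol9a, 0.080 for Slfn1 and 0.086 for Ly6a. Apol9a had reached the filter through the 2DG libraries alone (2.01 ± 0.619 FPKM with 2DG and 0.511 ± 0.108 FPKM with vehicle). So had the uncalled genes Trim34a (mean 1.46 FPKM with 2DG and 0.853 FPKM with vehicle) and Tor3a (1.33 FPKM with 2DG and 0.868 FPKM with vehicle). The positive estimates of Apol9a, Trim34a and Tor3a are no support for a direction of the list. Slfn1, Slfn2, Apol9a and Ly6a have close copies that may share reads.

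Of 35 other GBP and IRF1-type targets 16 were tested, 0 were higher and 1, Socs1 as above, was lower, against 1.53% and 1.19% of all tested loci. Of 13 nucleic acid sensors and adaptors 10 were tested and none was called, against 2.72% of all tested loci. Nor was any at an unadjusted p under 0.05, against 17.9%.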

How the data were processed

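RNA-seq values came from 6 libraries of mouse Th17 cultures, 3 with 2DG and 3 with vehicle. The authors deposited 1 table of FPKM values per locus and library, made with the tools below; its header names no unit, and FPKM was read from the layout and those tools. Per the submitters' processing notes, the build was mm10 and the tools were Cuffdiff 2.2.1.3, Cuffnorm 2.2.1.1, Cufflinks 2.2.1.0 and TopHat2 2.1.0; settings, annotation, strand and scaling were not stated. The 75th percentiles of the libraries lay between 10.9 and 11.6 FPKM, while the sums ran from 1469420 to 1958739, with 72.1% to 78.2% in small RNA genes. Whole fragments could not be recovered from low values (13.1% to 22.5% of ratios within 0.05 log2 units of the most frequent), so depth is unknown.

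The 10228 loci whose mean reached 1 FPKM were fitted on log2(FPKM + 1) with limma 3.58.1 (R 4.3.3), with group as the only term, eBayes with a trend, two-sided p-values and Benjamini-Hochberg adjustment over all tested loci. The pseudocount of 1 understates changes of low genes. The code was tested on simulated data. Fold changes are 2DG minus vehicle. Members and lists were chosen with earlier results of these data known, so counts and medians over them are descriptions. Named genes were all members, up to 6 called genes of each other list, and Ifng, Ifnb1, Jak1, Jak2, Tyk2, Socs1, Socs3 and Il17a in any case; 3 listed genes (Ifi27, Helz2, Phf11d) matched no locus, and 1 further pathway gene is not reported here and is in no count of listed genes. An exact 0 can be a failed estimate. Gene coordinates are those of RefSeq (GRCm38, the same assembly as mm10). RefSeq windows matched 31 members, and 22 of these had their first 20 bases from the start on found in GENCODE M21 transcripts of the gene, 0 on the other strand. Alternatives were a pseudocount of 0.1, a minimum mean of 5 FPKM or none, quantile normalization, rescaling to an equal sum, a replicate block, eBayes without trend or robust, and leaving out each library; leaving out small RNA genes and using replicates 2 and 3 only were added after seeing the data. At most 0.479% of tested loci had identical values in a pair of libraries, so none was taken as a copy. Plots used Python 3.11.15 and matplotlib 3.10.9.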

Additional observations from a re-analysis of the deposited data

How the results depend on the processing

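The counts below give loci higher and lower with 2DG over all tested loci (156 and 122), then members (0 and 2), then other pathway genes (5 and 3). They were 100 and 65, 0 and 2, and 1 and 1 with no filter; 95 and 62, 0 and 1, and 0 and 1 after rescaling to an equal sum; 247 and 199, 1 and 4, and 7 and 4 with robust eBayes. Of the alternatives added after seeing the data, leaving out small RNA genes gave 270 and 246, 1 and 4, and 7 and 5, and replicates 2 and 3 only gave 43 and 28, 0 and 0, and 2 and 0. Each group has a library titled 17, one titled 42 and one titled 43, with no word on their meaning. Deviations of same-numbered libraries from the group means correlated at -0.0506, 0.193 and -0.112. Such values over all tested loci cannot decide whether the numbers pair the libraries, and both libraries titled 17 held Rn45s. The main fit used no block. A replicate block gave 57 and 44, 0 and 1, and 1 and 2, with Ifngr2 (adjusted p = 0.070) and Jak2 (0.065) not called. With each library left out in turn the counts ran from 52 to 98 and 25 to 69, members stayed at 0 higher with 1 to 2 lower, and other pathway genes ran from 0 to 1 higher and 1 to 2 lower. The type I-like median was -0.06 with no filter, -0.22 with a minimum mean of 5 FPKM and -0.13 with replicates 2 and 3 only, and ran from -0.35 to -0.14 with a library left out; the GBP and IRF1-type median was 0.15 with replicates 2 and 3 only and ran from -0.09 to 0.08. Sign changes came only in uncalled genes: with replicates 2 and 3 only Irf9 (-0.0036), Ddx58 (0.03), Gbp5 (0.21) and Jak1 (0.01), after equal sums Jak1 (0.01), and with a library left out Gbp5 (-0.13 to 0.14), Jak1 (-0.06 to 0.05), Irf1 (-0.07 to 0.12), Trim25 (-0.04 to 0.20), Stat2 (-0.26 to 0.07) and Irf9 (-0.00013 to 0.19). The cause was not tested. The median of all tested loci stayed within -0.02 to 0.00 under every alternative. Depth is unknown, so no floor can be given for the 14 members under 1 FPKM.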
